A study of Homo sapiens with 13 samples.

Results

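The fibroblast growth factor (FGF) receptor family was followed through 3’ READS data of human cells that transcribe with wild-type or slow RNA polymerase II (Pol II). The family was taken as the 5 genes with the symbols FGFR1, FGFR2, FGFR3, FGFR4 and FGFRL1, and all 5 had reads, among 14575 genes with reads in the series. The family was chosen by the level of FGFR3, which was known to be higher in the R749H cells, so the expression of FGFR3 is given as a description and is not tested. Positions of 3’ ends were not part of that choice.

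FGF receptors are single-pass membrane proteins. FGFR1 to FGFR4 bind FGFs together with heparan sulfate through immunoglobulin-like domains, dimerise, and phosphorylate the adaptor FRS2 with an intracellular tyrosine kinase, from which the RAS–ERK, PI3K and PLCγ pathways are engaged. FGFRL1 binds FGFs as well but lacks the kinase domain. ERK signalling downstream of these and other receptors raises transcription factor genes such as ETV4, ETV5, EGR1 and FOS, and inhibitors of the SPRY, SPRED and DUSP families that act back on the pathway.

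All libraries came from HEK293 Flp-in T-REx cells, a human embryonic kidney line. In both groups, doxycycline at 2 µg/ml induced an α-amanitin resistant, Avitag-bearing Rpb1, the largest subunit of Pol II, and α-amanitin at 2.5 µg/ml was then kept on the cells for 42 hr, so that the resistant enzyme had to carry transcription. The groups were wild-type Rpb1 (5 libraries) and Rpb1 with R749H, a substitution known to slow elongation (4 libraries). The labels give 24 hr of doxycycline, and the study's methods a shorter induction before α-amanitin. Each genotype is 1 cell line, so genotype and cell line cannot be told apart, and p-values measure the spread between libraries of those lines. In such bulk samples a higher level per cell and a larger share of cells with the RNA cannot be told apart either.

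The libraries held 2479851 to 10135014 reads within 5 kb of a stop codon. R749H replicate 3 stood apart in having 41033 distinct 3’ ends, of which 6.60% rested on 1 read, where the other 8 libraries had 30.05 to 36.19%. Levels are given as CPM (reads scaled to a common library total, with TMM factors). 3’ READS gives 1 end per transcript, so that CPM of different genes are compared without division by length. Of 8 genes listed as marks of HEK293 cells, 6 had reads, with a summed level of 535 to 824 CPM in wild-type and 670 to 1082 CPM in R749H. INA, VIM, KRT8, KRT18 and LIN28B were present in every library, NEFM did not exceed 0.320 CPM, and NEFL and SOX11 had no values here. KRT18 was the largest part of the sum, at 323 to 570 CPM in wild-type and 432 to 842 CPM in R749H. VIM was lower in every R749H library, at 55.3 to 70.0 against 74.8 to 142 CPM. LIN28B was higher in every one, at 34.1 to 58.1 against 28.4 to 33.2 CPM. The libraries overlapped for INA, KRT8 and KRT18. Over all genes tested, they did not overlap for 19.9%. Of 12 markers of other cells 5 had reads, and their sum, 41.3 to 72.7 CPM in wild-type and 91.0 to 129 CPM in R749H, was nearly all HBA1. PTPRC, PECAM1, CDH5, HBB, COL1A2 and DCN had no values here. The part of these genes in the results was not tested. POLR2A, which encodes Rpb1, was at 60.5 to 125 CPM in wild-type and 253 to 520 CPM in R749H (log2 fold 2.12, limma adjusted p = 2.13e-05). The study does not state where transcripts of the induced gene end, so the part of these reads that came from it is not known. The 3’ ends also do not show the R749H codon.

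The letters just before the maximally used 3’ end differed between the members. Each line gives the 30 nt that end at the 3’ end, 5′ to 3′ on the transcript strand of GRCh37, with capitals for AATAAA or ATTAAA, the hexamers bound by the cleavage and polyadenylation factor. The windows are those of the main ends of 4 members and of the second end of FGFR4, whose hexamer lies across the listed position of its main end.
FGFR3, chr4:1810563-1810592, plus strand: ctttccgaaaAATAAAgacacctggttgct
FGFR2, chr10:123237848-123237877, minus strand: caaAATAAAtgtcacgcaacttattttttt
FGFRL1, chr4:1020656-1020685, plus strand: gttaaacatgaaagtgcatcctttccctcc
FGFR4, chr5:176525095-176525124, plus strand: atggcgttttataaattatttttttgaaat
FGFR4, second end, chr5:176525114-176525143, plus strand: ttttttgaAATAAAgctctgtgtgcctggg

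FGFR3 and FGFR2 have AATAAA, whose first base is base 20 and base 27 counted back from the end. FGFRL1 has neither hexamer in this window. The main end of FGFR4 also has neither, and its listed position is base 3 of an AATAAA that occupies chr5:176525122-176525127. The authors removed terminal As before mapping, so As that follow a listed end in the genome cannot be told from the tail. The rest of that hexamer is As, so cleavage may lie farther along it. That hexamer stands whole in the window of the downstream end at 176525143, where it begins 22 nt from the end. Among the main ends of 9494 genes tested for expression, 65.0% have AATAAA within 30 nt on the transcript strand, 18.1% have ATTAAA, which may occur together with the first, and 18.7% have neither. The FGFR4 window holds TATAAA, searched after its letters were seen, which 4.46% of all main ends hold and 13.3% of the 1771 main ends without the other hexamers. These matches describe letters and do not show which were used. The main ends of FGFR3 and FGFRL1 lie in annotated 3’ UTR, 2 nt before and exactly at an annotated transcript end. The bases from the listed FGFR3 end to the annotated one are As, so cleavage there would be listed at the same position. The main end of FGFR4 lies in 3’ UTR 21 nt before the annotated end of the gene.

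FGFR3 was by far the member that differed most in level. Its gene occupies chr4:1795020-1810599 on the plus strand. It was at 41.9, 66.2, 59.5, 54.5 and 32.9 CPM in wild-type replicates 1 to 5, and at 431, 452, 396 and 389 CPM in R749H replicates 1 to 4. Every R749H library lay far above every wild-type library. The means were 51.0 ± 13.5 CPM (SD, n = 5) and 417 ± 29.9 CPM (SD, n = 4), a log2 fold of 3.07 with an SE of 0.20, or 8.40-fold. Since the gene was chosen for this difference, no test is given. Only 15 of the 9494 genes had a larger log2 fold. By level, FGFR3 stood above 78.0% of these genes in wild-type and above 96.7% in R749H. With each library left out in turn its log2 fold was 2.92 to 3.17, and it was 3.12 without R749H replicate 3, the library that stood apart. These values reuse the libraries by which the gene was chosen, so they do not test it.

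**Figure D1:**
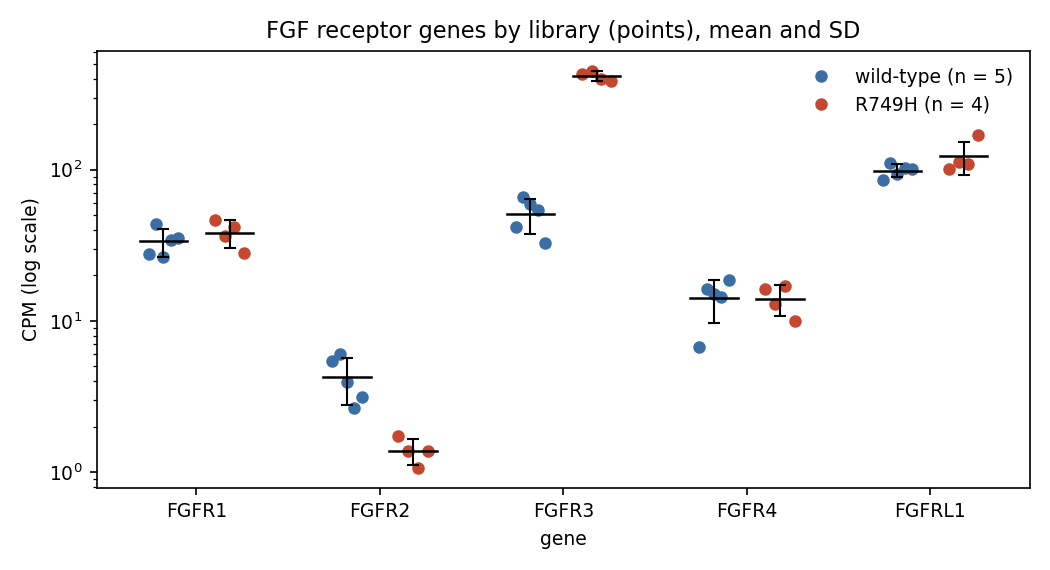
CPM (log axis) of each FGF receptor gene, with 1 point per library, a black line at the mean and bars of 1 SD, for wild-type (blue, n = 5) and R749H (red, n = 4). FGFR3 lies at 32.9 to 66.2 CPM in wild-type and at 389 to 452 CPM in R749H, FGFR2 is lower in every R749H library, and the points of the other 3 genes overlap.

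FGFR2 was the least abundant member and was lower in R749H. It was at 5.44, 6.05, 3.91, 2.64 and 3.15 CPM in wild-type and at 1.74, 1.37, 1.06 and 1.38 CPM in R749H. No R749H library reached the lowest wild-type library. The means were 4.24 ± 1.46 CPM (SD, n = 5) and 1.39 ± 0.276 CPM (SD, n = 4), a log2 fold of -1.50 (SE 0.42), or 2.83-fold lower, with a limma adjusted p of 0.0166. Among all 9494 genes, 12.9% were called lower and 10.9% higher by this test, and the libraries did not overlap for 19.9%. The depth behind these values was small, with 17 to 29 reads in each wild-type library and 4 to 10 in each R749H library. FGFR2 passed the minimum level of the test, 1.89 CPM in at least 4 libraries, through wild-type alone (5 of 5 libraries, against 0 of 4), which favours a call of this direction. The call was lost without wild-type replicate 2 (log2 fold -1.36, limma adjusted p = 0.0626) and when libraries were thinned to the smallest (-2.15, adjusted p = 0.0678), while without R749H replicate 3 it held (-1.36, adjusted p = 0.0208).

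FGFR1, a receptor of many mesenchymal tissues, did not pass the test of level. It was at 27.8, 43.8, 26.6, 34.3 and 35.1 CPM in wild-type and at 46.8, 36.7, 42.1 and 28.1 CPM in R749H, and the groups overlapped. Its means were 33.5 ± 6.90 CPM (SD, n = 5) and 38.4 ± 8.002 CPM (SD, n = 4). The log2 fold of 0.19 had a 95% interval of -0.25 to 0.64 and a limma adjusted p of 0.536. With no factors for composition, the value was -0.12.

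FGFR4 (chr5:176513906-176525145, plus strand), which works with the co-receptor KLB in liver, also did not pass. It was at 6.72, 16.3, 15.2, 14.4 and 18.5 CPM in wild-type and at 16.2, 12.9, 17.0 and 9.91 CPM in R749H. The groups lay over one another, with wild-type replicate 1 lowest. The means were 14.2 ± 4.47 CPM (SD, n = 5) and 14.0 ± 3.26 CPM (SD, n = 4), and the log2 fold was 0.02 (95% interval -0.59 to 0.63, limma adjusted p = 0.964), with a sign that turned under several settings.

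FGFRL1 (chr4:1003724-1020686, plus strand), the member without a kinase, was the most abundant in wild-type cells. It was at 85.4, 111, 94.3, 102 and 101 CPM in wild-type and at 102, 112, 109 and 168.5 CPM in R749H, where replicate 4 was alone above the wild-type range by a wide margin. The means were 98.8 ± 9.52 CPM (SD, n = 5) and 123 ± 30.8 CPM (SD, n = 4). The log2 fold of 0.29 (95% interval -0.09 to 0.67) had a limma adjusted p of 0.257, and it was -0.03 with no factors.

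The makeup of the family followed from these levels. FGFRL1 held 49.2% of the family's reads in wild-type, followed by FGFR3 at 25.1%, FGFR1 at 16.6%, FGFR4 at 6.99% and FGFR2 at 2.12%. In R749H, FGFR3 held 70.2%, FGFRL1 20.7%, FGFR1 6.49%, FGFR4 2.37% and FGFR2 0.233%. FGFR3 and FGFRL1 thus changed places at the head of the family, while the order of the other 3 was the same in both groups. The family summed to 202 ± 27.7 CPM (SD, n = 5) in wild-type and 594 ± 20.9 CPM (SD, n = 4) in R749H. Without FGFR3 the sums were 151 ± 19.4 and 177 ± 21.0 CPM.

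**Figure D2:**
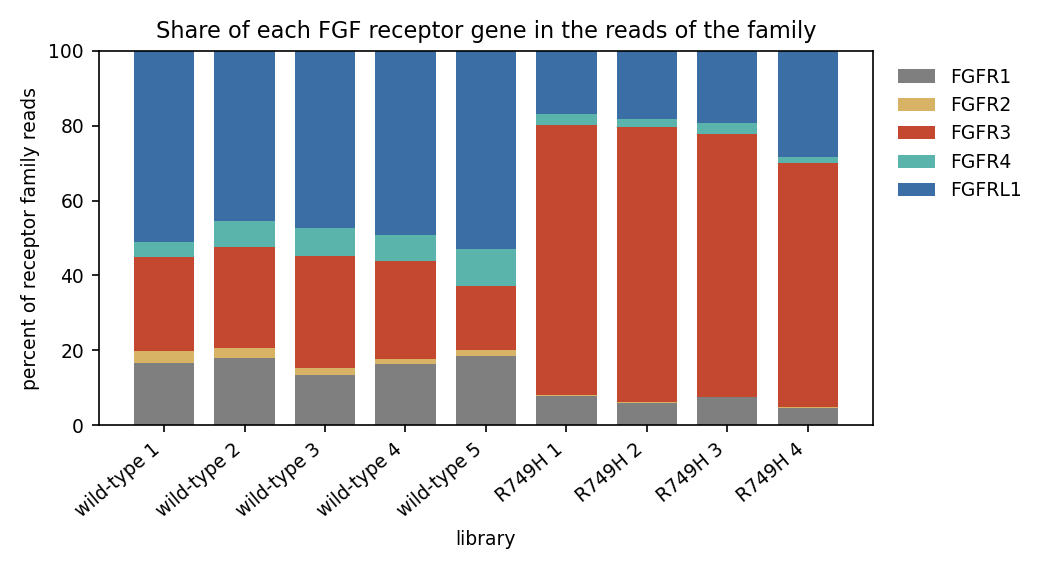
Stacked bars of the percent of FGF receptor family reads that each gene held in each of the 9 libraries (y axis, 0 to 100%). The FGFR3 share averages 25.1% in wild-type and 70.2% in R749H, and FGFRL1 goes from 49.2% to 20.7%. Shares sum to 100%, so that of FGFRL1 falls as that of FGFR3 rises. The level of FGFRL1 was not lower in R749H, at means of 98.8 CPM in wild-type and 123 CPM in R749H.

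The 3’ ends were compared next, because a slow Pol II bears on where transcripts are cleaved. The members fell along a range from 1 sharp end to many spread ones. Cleavage at As just after a listed end is counted at that end, as for FGFR3. FGFR3 placed 84.9% of its 8906 pooled reads at 1 listed position, and its effective number of ends (the inverse of the summed squared shares) was 1.37. The values were 1.74 for FGFR4, 3.58 for FGFRL1, 5.22 for FGFR1 and 8.20 for FGFR2, whose 142 reads limit the last value. Ends no more than 4 nt apart were joined into clusters, and the main cluster held 99.8% of the reads of FGFR3 and 96.3% of those of FGFRL1.

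For each member with at least 10 reads in every library, the mean distance of its ends from the stop codon and the share of its maximal isoform were tested by exact permutation of the libraries, two-sided. FGFR2 was below that depth. These were 8 tests on 4 genes, each with a smallest possible p of 0.0159, and their p-values are not adjusted for the 8 tests. The mean distance of FGFR1 was the 1 that fell below 0.05.

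FGFR1 ends lay farther upstream in R749H. FGFR1 occupies chr8:38257733-38326352 on the minus strand, and its 8 ends with at least 5% of the reads of the maximal isoform all fall in annotated 3’ UTR. The mean distance was 2095, 1970, 1974, 1971 and 1993 nt in wild-type and 1966, 1840, 1844 and 1932 nt in R749H. All 4 R749H libraries were below all 5 wild-type libraries, though R749H replicate 1 was so by only a few nt. The means were 2001 ± 53.5 nt (SD, n = 5) and 1895 ± 63.2 nt (SD, n = 4), a fall of 105 nt on average, with p = 0.0159 by the exact permutation test, the smallest it can give. With each library left out in turn, the difference was -129 to -81.8 nt, and the exact p was 0.0286 to 0.0357, with -88.1 nt without R749H replicate 3. The maximal isoform, at 2006 nt, held 42.1 ± 5.30% of FGFR1 reads in wild-type (SD, n = 5) and 32.2 ± 5.98% in R749H (SD, n = 4), for which the exact permutation p was 0.0794.

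The FGFR1 reads were then divided among sites, after these values were seen, by joining ends no more than 24 nt apart. This gave 7 sites, of which 3 held most reads, at 896 to 905 nt, 1990 to 2018 nt and 2482 to 2499 nt from the stop codon. The first held 4.60, 11.0, 11.7, 7.16 and 5.47% of FGFR1 reads in wild-type and 12.3, 21.6, 24.1 and 16.4% in R749H. Every R749H library was above every wild-type library at this upstream site, with means of 7.97 ± 3.19% (SD, n = 5) and 18.6 ± 5.29% (SD, n = 4) and an exact permutation p of 0.0159. The middle site fell from 69.2 ± 5.42% (SD, n = 5) to 54.3 ± 2.83% (SD, n = 4), again with no overlap (exact permutation p = 0.0159). The site farthest downstream did not pass, at 16.6 ± 5.97% and 20.9 ± 0.521% (exact permutation p = 0.190), but without wild-type replicate 1 the difference was 6.71 percentage points with an exact p of 0.0286. With 7 sites tested and with sites chosen after the ends were seen, these p-values are descriptive.

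In CPM, the upstream site of FGFR1 was at 2.71 ± 1.35 in wild-type (SD, n = 5) and 7.10 ± 2.44 in R749H (SD, n = 4), a ratio of 2.62, although the ranges of 1.28 to 4.80 and 4.61 to 10.1 overlapped slightly. The middle site was at 23.3 ± 5.23 and 20.9 ± 4.81 CPM. The end at 897 nt has AATAAA beginning 21 nt from it, and the most used end at 2484 nt of the downstream site has AATAAA at 20 nt. The middle site's main end, at 2006 nt, has neither AATAAA nor ATTAAA in its 30 nt, while the end at 1991 nt has ATTAAA at 22 nt.

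**Figure D3:**
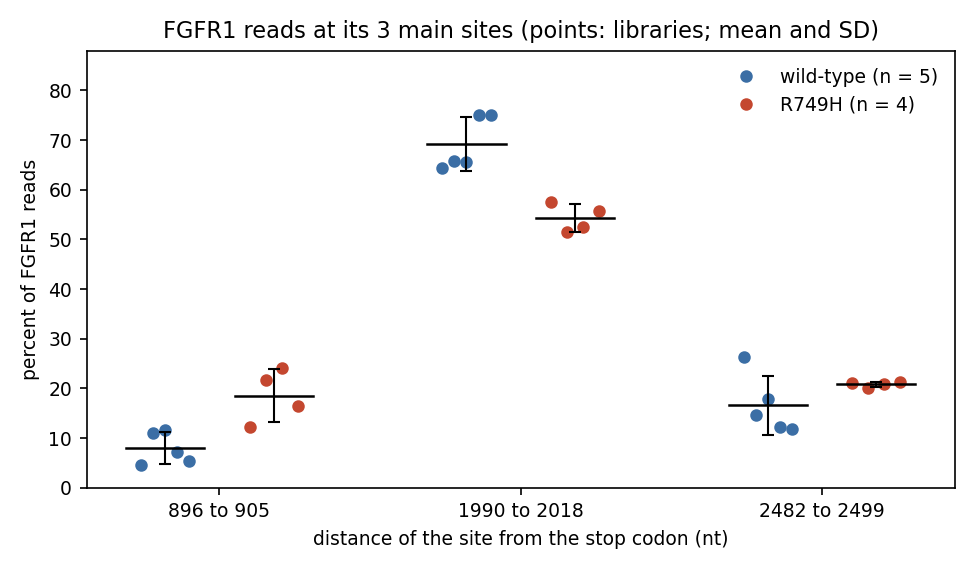
Percent of FGFR1 reads (y axis) at its 3 main sites, placed by their distance from the stop codon in nt (x axis), with 1 point per library, a line at the mean and bars of 1 SD. R749H libraries (red) lie above wild-type (blue) at 896 to 905 nt, at 12.3 to 24.1% against 4.60 to 11.7%, and below it at 1990 to 2018 nt.

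A second measure, the log2 odds of reads downstream of a gene's pooled median position, was tested over 6973 genes with limma, and 37 of them (0.531%) passed, 20 upstream and 17 downstream. FGFR1 was not among them (log2 odds 0.28, SE 0.25, adjusted p = 0.705). Its median position is the maximal isoform at 2006 nt, so that this measure puts the upstream site and most of the middle site on the same side. With FGFR1 divided halfway between its first and last major ends instead, the log2 odds were -1.40 with a limma adjusted p of 0.0754. The upstream difference of FGFR1 passed the exact test on its own libraries and did not pass the tests adjusted over all genes.

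The sharp end of FGFR3 was at the same position in both cell lines. Its mean distance was 1602 ± 3.09 nt in wild-type (SD, n = 5) and 1603.5 ± 0.550 nt in R749H (SD, n = 4), with an exact permutation p of 0.603. The lowest wild-type value, 1597 nt in replicate 1, includes 1 read of 131 that ended at 632 nt. The end at 1603 nt held 84.2 ± 1.95% and 84.96 ± 0.952% of the reads (exact permutation p = 0.651). The next end, at 1609 nt, held 9.68 ± 2.06% and 8.36 ± 0.912%. Neither measure of the FGFR3 ends differed by more than the spread between libraries, and its log2 odds of downstream reads were -0.10 (SE 0.18, limma adjusted p = 0.875).

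FGFRL1 and FGFR4 did not pass in either measure. The ends of FGFRL1 averaged 1545 nt in wild-type and 1546 nt in R749H (exact permutation p = 0.317), and its main end at 1550 nt held 49.7 ± 2.43% (SD, n = 5) and 48.1 ± 3.69% (SD, n = 4). Within its cluster, the R749H:wild-type ratio of shares went from 0.75 at 1537 nt through 1.16 at 1543 nt and 1.89 at 1549 nt to 0.61 at 1552 nt, so the ratio had no single direction along the cluster. No single FGFRL1 end with at least 5% of the maximal isoform separated the 2 groups of libraries. FGFR4 ends averaged 452 nt and 453.5 nt (exact permutation p = 0.206), and its main end at 447 nt held 77.7 ± 5.61% (SD, n = 5) and 69.6 ± 8.89% (SD, n = 4), with an exact permutation p of 0.143. The log2 odds were -0.67 (SE 0.36, limma adjusted p = 0.517) for FGFRL1 and 0.55 (SE 0.41, adjusted p = 0.643) for FGFR4.

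**Figure D4:**
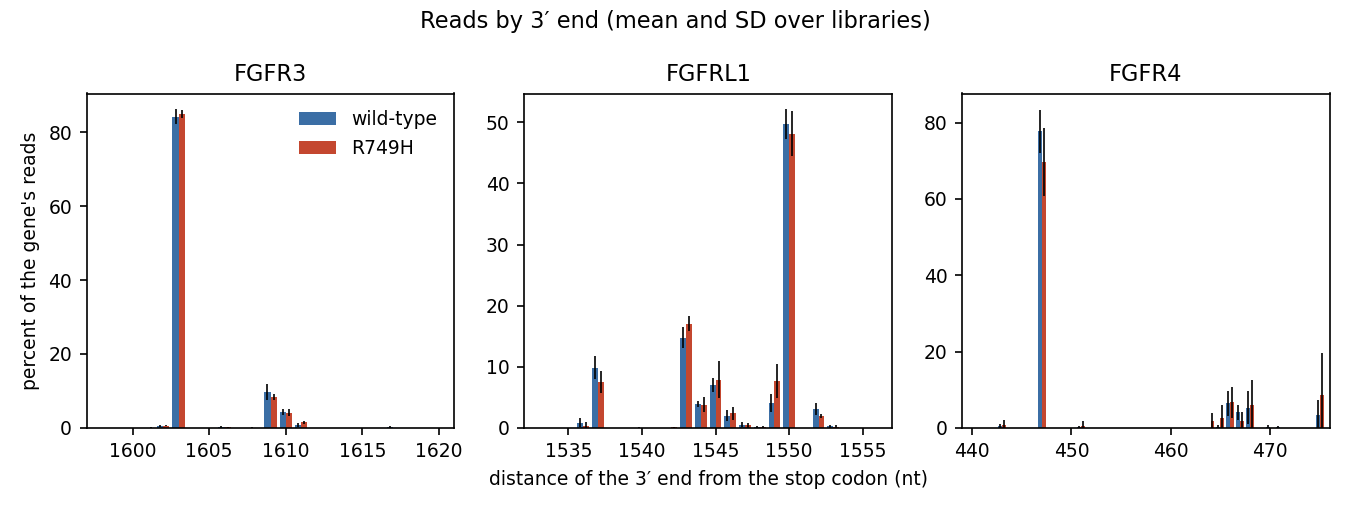
Percent of a gene's reads (y axis, from 0) at each 3’ end by distance from the stop codon in nt (x axis) for FGFR3, FGFRL1 and FGFR4, with bars at the mean of wild-type (blue, n = 5) and R749H (red, n = 4) and lines of 1 SD. The main ends, at 1603, 1550 and 447 nt, hold 84.2 and 84.96%, 49.7 and 48.1%, and 77.7 and 69.6% of reads in wild-type and R749H.

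FGFR2 ends, at 142 reads in all, were too few to test. They were assigned to 2 stop codons at positions 123239095 and 123241686 of chromosome 10, within a gene at chr10:123237846-123357972. The most used end, 1247 nt from its stop codon, held 28.9% of the reads. The ends joined with it, 1178 to 1250 nt from the stop codon, held 70.3 ± 12.9% in wild-type (SD, n = 5) and 63.3 ± 31.97% in R749H (SD, n = 4). A small group of 9 reads ended 490 to 506 nt past the upstream stop codon, and the most used of these ends, with 7 reads, lies inside the gene but outside annotated exons.

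The genes around FGFR3 were read in the same fit. Of the 23 other genes with stop codons within 1 Mb of that of FGFR3 that were tested, 1 was called higher and 3 lower, where 10.9% of all genes tested were called higher and 12.9% lower. Their median log2 fold was 0.18, against -0.07 over all 9494 genes. The nearest were LETM1 at 0.18 (SE 0.19), TACC3 at 0.12 (SE 0.25) and TMEM129 at 0.35 (SE 0.19), and none of the 3 passed. SLBP at 0.28, WHSC1 at -0.04 and NELFA at 0.20 were the next on either side, and these too did not pass. The gene called higher was MAEA, at 0.58 (SE 0.16, limma adjusted p = 0.0148), and those called lower were IDUA, NAT8L and POLN, all 4 named after their values were seen. The call of MAEA was lost with no normalisation factors, and that of POLN in 5 of 19 alternatives, among them leaving out wild-type replicate 2, 3 or 4 or R749H replicate 2 (log2 fold -1.29, from -1.54 to -0.98 with a library left out, largest limma adjusted p = 0.102). FGFRL1 lies 789854 nt from FGFR3 on the same arm.

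The genes with the highest Pearson r to FGFR3 in log2 CPM over the 9 libraries were P2RX5 (r = 0.988), S100A13 (r = 0.988), BTG3 (r = 0.983), C9orf172 (r = 0.983) and TNFRSF10D (r = 0.981). P2RX5 encodes an ATP-gated channel, BTG3 an antiproliferative protein, and TNFRSF10D a decoy receptor for TRAIL. The libraries share their division into 2 groups, so a high r can come from the group difference alone, for which FGFR3 was chosen. These r values are a description. In all, 60 genes had r above 0.95, and none of the 5 was among the 5 highest by Spearman rho. TNFRSF10D was at 5.75 ± 0.754 CPM in wild-type (SD, n = 5) and 46.4 ± 11.5 CPM in R749H (SD, n = 4). BTG3 was listed with no reads in wild-type and stood at 122 ± 24.3 CPM in R749H (SD, n = 4). It was thus tested through R749H alone, and had no wild-type reads that could vary with FGFR3.

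Ligands and co-receptors were counted against the same shares of all genes, 10.9% called higher and 12.9% lower. Of 25 ligand genes and ligand-binding proteins, 13 had reads and 6 were tested, with FGF2, FGF9, FGF21 and FGFBP3 among those that did not pass. FGF11, an intracellular FGF that does not act through the receptors, was the only ligand called, at 2.71 ± 1.47 CPM in wild-type and 0.275 ± 0.411 CPM in R749H (log2 fold -3.43, SE 0.93, limma adjusted p = 0.0143), but its libraries overlapped and it was tested through wild-type alone. The gene was tested in 12 of 19 alternatives, among them that with no filter. It was not tested when wild-type replicate 1, 2, 4 or 5 was left out. The ligand median was 0.37. Of 19 co-receptors and proteoglycans, 8 were tested, 1 was higher and 1 lower, with a median of 0.14. SDC4, a heparan sulfate proteoglycan, went from 2.46 ± 1.17 CPM (SD, n = 5) to 8.51 ± 4.42 CPM (SD, n = 4) without overlap, a 3.44-fold rise. CDH2, the neural cadherin, fell 2.23-fold with overlapping libraries, and its call was lost without R749H replicate 4 (log2 fold -0.98, limma adjusted p = 0.0545). FGF11 and CDH2 are named after their values were seen.

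None of the 16 tested adaptors and kinases of the pathway passed with limma, out of 25 listed, where 10.9% of all genes were called higher and 12.9% lower, and their median log2 fold was 0.05. FRS2, the docking protein of FGF receptors, was at 6.87 and 7.17 CPM (log2 fold 0.04, SE 0.27), and the largest differences in the list were those of AKT1 (0.64, SE 0.27) and GRB2 (0.58, SE 0.26). AKT1 was called higher without wild-type replicate 5, and GRB2 without R749H replicate 1.

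Most tested members of the list of feedback inhibitors and target genes were called. All 19 had reads, 8 were tested, and 6 of these 8 were called higher and none lower, where 10.9% of all genes were called higher. The median log2 fold of the 8 was 1.89, against -0.07 over all genes. The count and the median include ETV5 and FOS, which passed the minimum mainly through R749H, and this favours calls in that direction. The other 11 members were below the minimum and not tested. With each library left out, the count was 3 to 6. The members called were transcription factors and a cyclin. EGR1 was at 3.84, 1.88, 0.815, 2.37 and 2.10 CPM in wild-type and at 8.52, 12.6, 23.4 and 13.1 CPM in R749H, a 6.56-fold rise (log2 fold 2.71, SE 0.41). FOSL1, an AP-1 subunit, was at 3.32 to 7.36 CPM in wild-type and 13.3 to 59.7 CPM in R749H, a 6.24-fold rise. The libraries of both genes were apart, as were those of the next pair.

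ETV4 and ETV5, ETS factors that are often read as targets of FGF signalling, both passed. ETV4 was at 3.52, 4.59, 6.03, 2.00 and 1.75 CPM in wild-type and at 12.7, 9.86, 17.0 and 11.1 CPM in R749H, a 3.77-fold rise (log2 fold 1.91, SE 0.36). ETV5 was at 0.968 ± 0.795 CPM (SD, n = 5) and 3.06 ± 0.729 CPM (SD, n = 4), with a log2 fold of 1.87 (SE 0.64, limma adjusted p = 0.0422), but it was tested through R749H alone, where 4 of 4 libraries reached the minimum against 1 of 5. ETV5 was called in 7 of 19 alternatives, and its call was lost without wild-type replicate 2, 3, 4 or 5 or R749H replicate 1, 2 or 4 (largest limma adjusted p = 0.119). FOS (log2 fold 2.69) and CCND1 (0.75), which encodes cyclin D1, passed with overlapping libraries. CCND1 was called in 7 of 19 alternatives, and its call was lost without wild-type replicate 2, 3, 4 or 5 or R749H replicate 2 or 4 (largest limma adjusted p = 0.125). FOS was tested in 14 of the 19, among them that with no filter, and was called in each of these. It was above the minimum in 3 of 4 R749H libraries and 1 of 5 wild-type libraries, which favours a call of this direction. ETV5 and FOS are among the 6 members called higher. EGR1, FOSL1 and ETV4 were called in 19 of 19. FOS and CCND1 are named after their values were seen.

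The inhibitors of the same list gave no call. SPRED2 (log2 fold 0.49, SE 0.44) and SPRED3 (1.04, SE 0.50) did not pass. The other 11 members of the whole list that were not called, not all of them inhibitors, were below the minimum of the test. Among these, DUSP6 was at 1.35 ± 0.700 CPM in wild-type and 0.462 ± 0.444 CPM in R749H, SPRY1 at 1.14 ± 0.585 and 0.559 ± 0.0985 CPM, SPRY2 at 0.448 and 0.487 CPM, and SPRY4 at 0.207 and 0.386 CPM. The transcription factor genes MYC and ETV1 were also below the minimum. MYC was at 1.77 ± 2.12 CPM in wild-type and 0.455 ± 0.452 CPM in R749H, and ETV1 at 0.402 and 0.383 CPM. All calls in the list were thus of transcription factors or CCND1, but not every transcription factor of the list was tested. The count of 6 was 3 when any of wild-type replicate 3, wild-type replicate 4 or R749H replicate 4 was left out, and also 3 with libraries thinned to the smallest.

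Other receptor tyrosine kinases of the same cells went in both directions, and 1 of 15 tested was called higher and 4 lower, against 10.9% and 12.9% of all genes, with a median log2 fold of -0.36. The 4 lower became 2 without wild-type replicate 2, 3, 4 or 5 or R749H replicate 2 or 4 and with thinned libraries, 6 without wild-type replicate 1, and 8 with no normalisation factors. EPHA2, an ephrin receptor, rose 3.19-fold from 27.2 ± 7.88 CPM (SD, n = 5) to 86.5 ± 22.1 CPM (SD, n = 4), without overlap. ERBB3, the neuregulin receptor, fell 2.96-fold from 4.84 ± 0.605 to 1.63 ± 0.576 CPM, although it was tested through wild-type alone. ROR2, a receptor for WNT5A, fell 2.48-fold, EPHB4 fell 1.51-fold, and both were without overlap. ERBB2 fell 1.67-fold with overlapping libraries and is named after its values were seen. ERBB2 was called in 9 of 19 alternatives and EPHB4 in 7 of 19, while EPHA2, ERBB3 and ROR2 were called in 19 of 19.

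**Figure D5:**
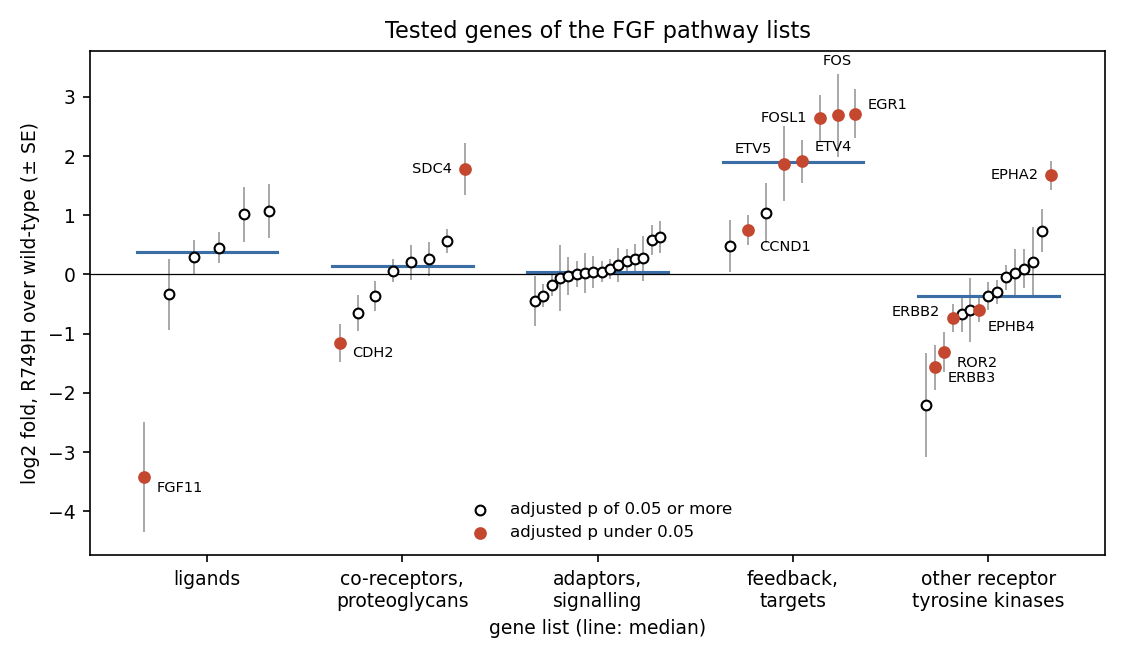
Log2 fold of R749H over wild-type (y axis, bars of 1 SE) for the tested genes of 5 lists (x axis), with filled points for a limma adjusted p under 0.05 and a blue line at each median. Filled and above 0 are 6 of 8 feedback and target genes, 0 of 6 ligands, 1 of 8 co-receptors, 0 of 16 adaptors and 1 of 15 other receptor tyrosine kinases. Filled and below 0 are 1 ligand, 1 co-receptor and 4 other receptor tyrosine kinases. Of all genes tested, 10.9% were called higher and 12.9% lower. The count of 6 was 3 to 6 with each library left out.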

How the data were processed

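Poly(A) RNA of HEK293 cells with induced wild-type or R749H Rpb1 was measured by 3’ READS. The authors mapped reads to hg19 (the processing notes name Bowtie2 2.3.2), required As that the genome does not encode, and gave each 3’ end the nearest CCDS stop codon within 5 kb before it. The deposited signal is reads per 3’ end, scaled by the authors to a fixed total per replicate. Dividing each library by its smallest step returned whole reads for 100% of values (tolerance 0.1 reads), and their sums equalled the pooled files at all 176030 wild-type and 134734 R749H ends. Positions were read on GRCh37, where 15535 of 15558 CCDS entries end at a stop codon. Gene annotation came from GENCODE lifted to that build. The 4 eNETseq libraries are not analysed here.

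Reads were summed per gene, filtered with filterByExpr and tested as log2 CPM (TMM factors, prior count 0.5) with limma 3.58.1 (edgeR 4.0.16, R 4.3.3) over 9494 genes, with Benjamini-Hochberg adjustment and a threshold of 0.05. Log2 folds of low genes depend on this scale, in either direction. That of FGF11 was -3.43 with limma, -2.96 with edgeR and -3.08 with DESeq2. That of FGFR2 was -1.50, -1.54 and -1.54. The log2 odds of downstream reads (0.5 reads added, mean of at least 20 reads) were tested with limma over 6973 genes. Permutation tests used every split of the libraries. On simulated data with 200 genes changed by a log2 size of 1, limma recovered 115 for expression and 78 for end position, with 4.96% and 4.88% of calls false. The expression changes were planted in genes with a mean above 20 reads, and all genes had the same simulated dispersion. The recovery thus does not describe genes below that depth, such as FGFR2. The receptor genes, lists and tests were chosen with earlier results of these data known.

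Genes were named by a rule: the 5 receptors, up to 4 called members of each list and direction whose libraries did not overlap, the 3 nearest tested genes on each side of FGFR3, and the 5 genes most like FGFR3. Others are marked. Alternatives were edgeR, DESeq2 1.42.0, other factors, filters, prior counts and divisions, ends within 2 kb, thinned libraries, a replicate block and each library left out. The labels share replicate numbers between groups, but same-numbered libraries did not deviate together in log2 CPM (r -0.07 to 0.05).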

Additional observations from a re-analysis of the deposited data

Results flagged for a closer look

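Of 34 groups of library values examined for the receptors, 4 held a library whose gap to the nearest other exceeded Dixon's 95% limit, where chance flags about 1 in 20. FGFRL1 was at 168.5 CPM in R749H replicate 4, with the other R749H libraries at 102 to 112 CPM. The other 3 were all in wild-type replicate 1, the shallowest library. There the mean distance of FGFR1 ends was 2095 nt, against 1970 to 1993 nt in the other wild-type libraries. That of FGFR3 ends was 1597 nt, against 1602 to 1604 nt. This FGFR3 value includes 1 read at 632 nt among 131 reads, and the rest ended at 1601 to 1617 nt. The maximal FGFR3 isoform held 80.9% of reads in wild-type replicate 1, against 84.5 to 86.0% in the others. Without that library, the FGFR1 difference was -81.8 nt (exact permutation p = 0.0286).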

How the results depend on the processing

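The call of FGFR2 did not hold in 2 of the alternatives run. FGFR3 had a log2 fold of 2.75 to 3.17 over the alternatives. These values reuse the libraries by which FGFR3 was chosen, so they are a description only. FGFR2 had a log2 fold of -2.15 with thinned libraries, and -1.64 to -1.36 with each library left out. Signs of uncalled members turned: FGFR1 (-0.12), FGFR4 (-0.29) and FGFRL1 (-0.028) with no factors, and FGFR4 with edgeR (-0.038), DESeq2 (-0.026), thinning (-0.043) and leaving out libraries (-0.23 to 0.20). No factors moved the median gene by -0.31, and relative to the median FGFR1 stood at 0.26 in both; it gave 460 genes higher and 2482 lower against 1038 and 1227, so 15.6% against 45.8% of calls were higher. The pathway lists, with 6, 8, 16, 8 and 15 members tested, together had 8 higher and 6 lower. Of all genes tested, 10.9% were called higher and 12.9% lower. The lists had 13 lower with no factors, where 2482 of all 9494 genes were lower. They had 10 lower with no filter, 3 with thinning and 3 with replicates 1 to 4 alone. Target genes called higher were 3 with thinning. Leaving out each library gave 3 to 6 target genes higher, and 5 to 9 higher and 3 to 8 lower over all lists. For end position, the 17 downstream and 20 upstream genes became 27 and 38 with the midpoint, 9 and 6 at a mean of 50 reads, 2 and 3 with 0.1 reads added, and 1 to 22 and 3 to 31 with a library left out. The midpoint turned FGFR1 to -1.40 and FGFRL1 to 0.13. The maximal cluster of FGFR1 differed by -12.3 percentage points (exact permutation p = 0.0159), and that of FGFRL1 by 1.26. FGFR3 mean distance turned to -0.081 nt over its major ends and ranged from -0.0060 to 1.79 nt, and its maximal share from -0.12 to 1.15 percentage points, with a library left out. The cause was not tested.

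The replicate block over replicates 1 to 4 gave 1000 genes higher and 1093 lower, 25 genes shifted downstream and 50 upstream, against 10 and 20 without the block on the same libraries. With the block FGFR2 stayed called (adjusted p = 0.0405). Same-numbered libraries did not deviate together in log2 CPM, and pairing in end position was not tested. No 3’ end was listed under several entries of a gene, so that alternative could not differ. Depth limits FGFR2 most, at 4 to 10 reads in R749H.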
